A study of Mus musculus with 8 samples.

Results

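Spleen cells of male mice with the Yaa chromosome were compared with wild-type cells for the genes of the antibody-secreting plasma cell. The members were 9 genes: the transcription factors Prdm1, Xbp1 and Irf4, the surface proteoglycan gene Sdc1, the endoplasmic reticulum genes Derl3 and Mzb1, the antibody genes Jchain and Ighm, and Slpi, a secreted protease inhibitor. Every probe set that the array's annotation mapped to exactly 1 of these symbols was taken, which gave 26 of the 45101 probe sets, for 9 of the 18193 genes on the array. Of immunoglobulin constant genes only Ighm was on the list, and 4 further probe sets that carry Ighm together with variable or Ighg3 symbols were left out. The wild-type group was 4 samples of C57Bl/6J spleen and the Yaa group 4 samples of B6.SB-Yaa/J spleen, all from males 8 weeks old, with no treatment named. Yaa is a Y chromosome that carries a translocated piece of the X chromosome with Tlr7, and it is present in every cell, so no promoter limits it to a cell type. The third Yaa sample pooled 2 spleens and each other sample was 1 spleen. Total RNA of red-cell-lysed suspensions was hybridised to 1 Affymetrix mouse array per sample. Numbers 1 to 4 after the group name are those of the labels.

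A B cell becomes a plasma cell when IRF4 and BLIMP-1, the product of Prdm1, silence genes of B cell identity and XBP1 enlarges the secretory pathway. The protein load on the endoplasmic reticulum is met by chaperones, by the translocon and by degradation factors such as Derlin-3, the product of Derl3. In the spleen these cells lie mainly in the red pulp, and TLR7 signals in B cells are known to drive their formation. Xbp1, Irf4, Sdc1 and Slpi are not exclusive to plasma cells, since other leukocytes or epithelial cells also use them.

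Promoters of this secretory program are known for a paired sequence, the endoplasmic reticulum stress element, through which ATF6 and XBP1 act. The full element, CCAAT, any 9 bases and then CCACG, was searched on both strands in RefSeq promoter windows of GRCm38.p6, from 250 bases before to 50 after each start. It was found in 39 of 32851 windows (0.119%), or by gene in 37 of 27025 (0.137%). Among the members 7 had a window, and 1 of them, Derl3, held the element. Of 34 genes of the secretory machinery list (described with its values further on) that were tested and had a window, 9 held it (26.5%). The core of the second XBP1 motif, TGACGTGG, stood in 222 windows (0.676%), or by gene in 193 (0.714%). It stood in 0 members and in 3 of the 34 genes. The reverse complement of this core begins with the same CCACG that ends the element, so both can overlap. Derl3 is shown because it is the only member with the element, and Creld2, Hsp90b1 and Hspa5 are shown as 3 chaperone-related genes with it. The 200 bases before each start are printed 5′ to 3′ on the gene's own strand. Capitals mark each element, on either strand, that lies wholly within them. Hsp90b1 holds another element from -212 to -194, of which only the last bases are printed, in lower case.

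Derl3, chr10:75893198-75893397, plus strand: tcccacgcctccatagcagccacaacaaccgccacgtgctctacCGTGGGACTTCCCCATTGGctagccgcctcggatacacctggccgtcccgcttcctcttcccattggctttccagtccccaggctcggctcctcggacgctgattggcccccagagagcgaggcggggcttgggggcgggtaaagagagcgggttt

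Creld2, chr15:88819446-88819645, plus strand: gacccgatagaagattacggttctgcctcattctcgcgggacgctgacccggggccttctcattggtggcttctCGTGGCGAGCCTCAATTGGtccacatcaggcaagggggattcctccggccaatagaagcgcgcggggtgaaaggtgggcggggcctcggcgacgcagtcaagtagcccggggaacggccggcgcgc

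Hsp90b1, chr10:86705445-86705644, minus strand: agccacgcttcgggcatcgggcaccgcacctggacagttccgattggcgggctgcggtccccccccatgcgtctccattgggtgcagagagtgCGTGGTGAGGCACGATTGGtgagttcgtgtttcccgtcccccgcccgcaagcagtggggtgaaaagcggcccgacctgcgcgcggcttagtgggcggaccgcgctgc

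Hspa5, chr2:34771890-34772089, plus strand: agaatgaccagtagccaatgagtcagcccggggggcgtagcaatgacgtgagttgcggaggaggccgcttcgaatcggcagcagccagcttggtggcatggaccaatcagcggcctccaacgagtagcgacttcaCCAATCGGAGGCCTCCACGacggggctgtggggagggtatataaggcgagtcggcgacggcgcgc

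These letters are a description of the sequence and not a measured binding site.

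Levels are given as log2(signal + 16) after quantile normalization, a scale whose floor is 4. A difference is the Yaa mean minus the wild-type mean on that scale, which understates changes of dim probe sets. A probe set was tested if its mean over all arrays lay above the median of all non-control probe sets, which 22 of the 26 passed. All 9 genes had a tested probe set, and the brightest stands for its gene unless another is named. "Called" means an adjusted p under 0.05 in limma over all 22518 tested probe sets.

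A pair of Yaa samples lay far from the remaining arrays. On the first principal component, with 56.8% of the variance, Yaa 2 lay at 68.8, Yaa 3 at -92.4 and the others from -18.4 to 20.1. The mean over 11 tested B cell markers was 10.20 to 10.64 in wild type, 10.25 in Yaa 1, 10.90 in Yaa 2, 10.19 in Yaa 4 and 5.94 in Yaa 3, so the pooled sample had little signal of the cells that give rise to plasma cells. Of these, Ms4a1, which encodes CD20, stood at 4.08 in Yaa 3, close to the floor. The mean of 9 T cell markers was 5.09 there and 7.97 to 9.04 elsewhere. The mean of 11 monocyte and macrophage markers was 9.19 to 9.30 in wild type and 9.43 to 10.76 in Yaa, and that of 10 neutrophil markers was 8.29 to 9.01 and 8.82 to 10.98. NK cell markers (7 tested) ranged from 7.05 to 7.44 and from 7.09 to 8.72, plasmacytoid dendritic cell markers (9) from 6.91 to 7.13 and from 6.89 to 7.40, and erythroid markers (7) from 12.10 to 12.55 and from 10.80 to 12.63. Of the list of 15 epithelial and pancreatic markers 4 were tested, with means of 6.02 to 6.41 in wild type and 5.93 to 6.91 in Yaa. Tlr7, the check of the labels, had 3 probe sets with higher Yaa means; the brightest stood at 6.85 to 7.31 in wild type and 7.62 to 8.51 in Yaa. Of the dimmer ones 1 overlapped, with Yaa 3 at 6.30 and wild type 4 at 6.35. In whole-spleen RNA, fewer cells of a type and less RNA per cell cannot be told apart. The labels do not say whether the mice shared a litter or a day, so p-values measure the spread between these samples.

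With all 8 samples, limma called 0 of the 22 tested member probe sets (lowest adjusted p = 0.807), where 0.00444% of all tested probe sets were called. At an unadjusted p under 0.05 there were 4 member probe sets, all higher in Yaa, where 2.97% of all probe sets were higher and 1.76% lower (4.73% in all). They belonged to Xbp1 (3) and Slpi (1), and 2 of them, 1 of each gene, did not overlap between the groups, which held for 4.10% of all probe sets. Of the 9 genes, 5 had higher and 4 lower means in Yaa. Their median difference was 0.09, and that of all 10340 tested genes was -0.02. The sign of the member median is not stable: without Yaa 1 it was -0.11, and with the values as deposited -0.06, each with 3 of 9 genes higher.

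Without Yaa 3, 15 of the 22 probe sets were higher in each of Yaa 1, 2 and 4 than in each wild-type sample, where 4.77% of all probe sets were. Of the 22, 4 belong to Xbp1 and 8 to Ighm, and probe sets of 1 gene are not independent. By gene, with the brightest probe set, this held for 5 of 9, against 4.62% of all tested genes. Also 5 of 9 genes were higher at an unadjusted limma p under 0.05, against 3.74% of all genes. The count of probe sets depended on the scaling: it was 13 with median-centred arrays (3.12% of all) and 5 with the values as deposited (1.39% of all). At an unadjusted p under 0.05 there were 15, all higher, against 3.86% of all probe sets, and limma still called 0 (lowest adjusted p = 0.219; 0.00444% of all called). Here 8 of 9 genes had higher means and the median difference was 0.42, against -0.03 over all genes. Yaa 3 was the lowest sample for several members, so leaving it out raises their Yaa means by construction. Leaving out any other single sample instead gave 2 member probe sets with every Yaa sample above every wild-type sample, against 3.15% to 4.85% of all probe sets. At an unadjusted limma p under 0.05 those fits gave 2 to 4 member probe sets, where 1.85% to 4.29% of all probe sets were higher at that p. With limma array weights, which downweight discordant arrays, and without Yaa 3, a combination chosen after the data were seen, 9 of the 22 were called and all were higher (1.33% of all called): 4 of Ighm, 2 of Xbp1 and those of Jchain, Mzb1 and Slpi. In that fit Yaa 1 had a weight of 2.4, Yaa 4 of 0.73 and Yaa 2 of 0.18, so the Yaa mean rests mostly on 1 spleen. The values without Yaa 3 come from arrays normalized again without it. The exact permutation test of 3 against 4 samples has 35 arrangements and cannot go below 0.0286.

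**Figure D1:**
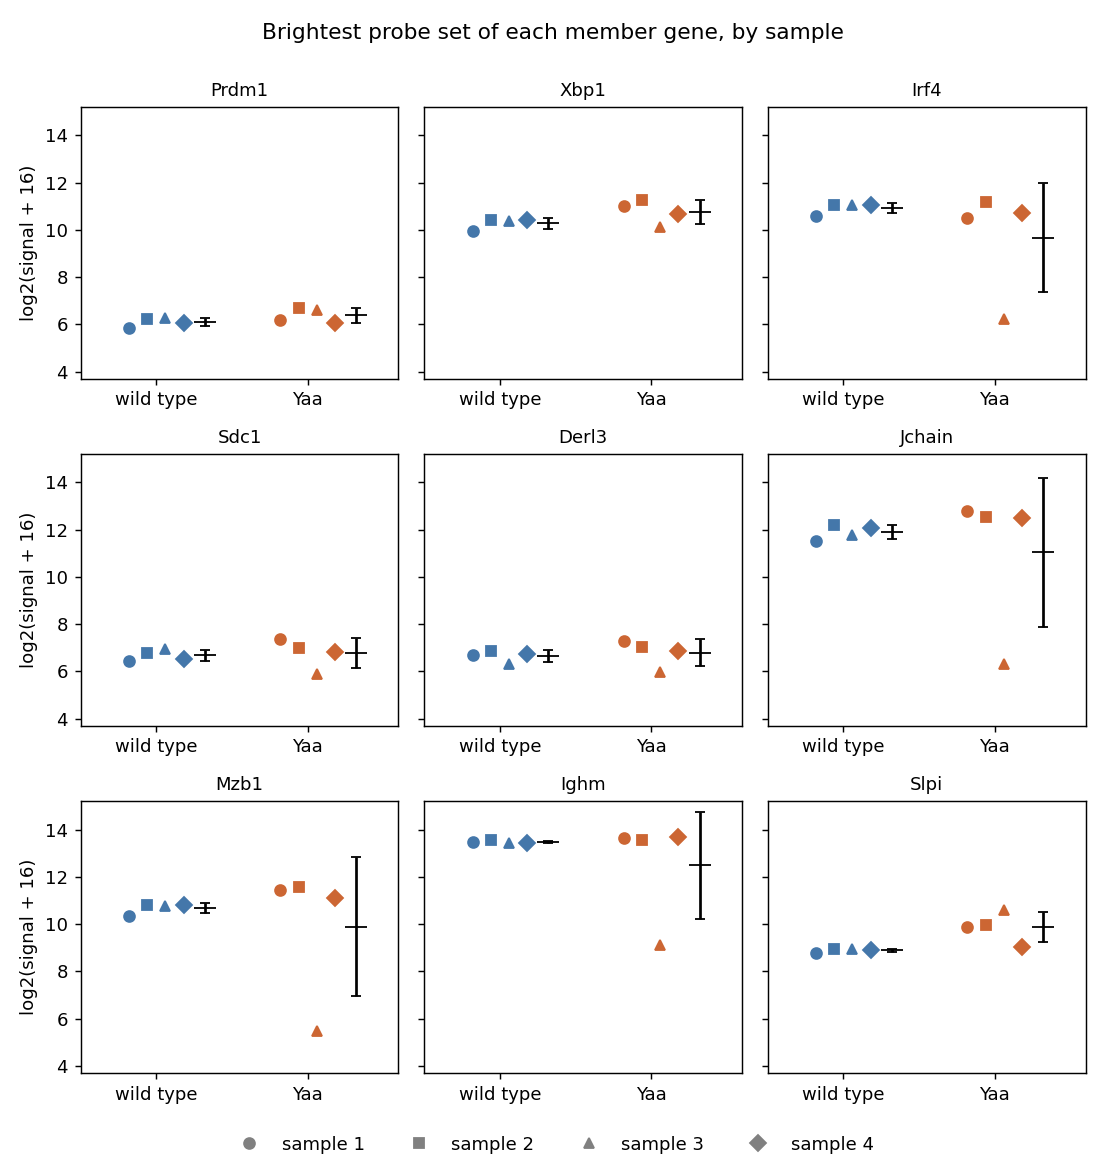
Level of the brightest probe set of each member gene in every sample, as log2(signal + 16); symbols mark the sample number, and the black bar is the mean with its SD over 4 samples. Yaa 3 (triangle) lies far below the other Yaa samples for Irf4, Jchain, Mzb1 and Ighm (6.22, 6.32, 5.48 and 9.10) and is the highest for Slpi (10.59).

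Among the transcription factors, Xbp1, which drives the secretory expansion, was the member whose probe sets differed most evenly. Its brightest probe set stood at 9.93, 10.40, 10.37 and 10.41 in wild type 1 to 4 and at 11.01, 11.26, 10.10 and 10.65 in Yaa 1 to 4. Every Yaa sample but Yaa 3 lay above all wild-type samples. The difference was 0.48 ± 0.24 (SE; limma adjusted p = 0.997; exact permutation p = 0.200), and 0.69 ± 0.18 without Yaa 3 (SE; limma adjusted p = 0.463; exact permutation p = 0.0286). The other 3 Xbp1 probe sets differed by 0.60, 0.48 and 0.37 with all samples and by 0.83, 0.62 and 0.37 without Yaa 3. All 4 thus had higher Yaa means in both fits. The dimmest, 1420012_at, was also above wild type in Yaa 3, at 6.71 against 6.20 to 6.47. The probe set 1420886_a_at was the single member called with array weights over all 8 samples (0.69 ± 0.13, SE; limma adjusted p = 0.0431; 0.635% of all probe sets called). Relative to the B cell marker mean of the same sample, the brightest Xbp1 probe set was -0.26 to -0.06 in wild type. In Yaa 1 to 4 it was 0.75, 0.36, 4.16 and 0.47. In Yaa 3 Xbp1 was the lowest of the Yaa samples (10.10), but far less low than the B cell markers (mean 5.94), which makes the relative value high. Which cells carried the Xbp1 signal was not tested.

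Irf4, needed both in activated B cells and in plasma cells, did not share that difference. Its level was 10.61, 11.04, 11.06 and 11.04 in wild type and 10.51, 11.19, 6.22 and 10.73 in Yaa. Apart from Yaa 3 the groups overlapped, and the difference moved from -1.27 ± 0.95 (SE; limma adjusted p = 0.997) to -0.13 ± 0.18 (SE) without Yaa 3. The dimmer Irf4 probe set gave -0.63 ± 0.56 and 0.04 ± 0.16 (SE) in the same fits. Irf4 was low in Yaa 3 where the B cell markers were low too: Irf4 minus their mean was 0.28 there and 0.26 to 0.57 in the other 7 samples.

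Prdm1, encoding the repressor BLIMP-1, was dim in this tissue, with 5.86, 6.25, 6.25 and 6.05 in wild type and 6.17, 6.69, 6.62 and 6.05 in Yaa. The groups overlapped, and Yaa 3 was within the range of the other Yaa samples. The difference was 0.28 ± 0.19 (SE; limma adjusted p = 0.997; exact permutation p = 0.229), 0.21 ± 0.20 without Yaa 3 and 0.01 ± 0.19 (SE) without Yaa 2 and Yaa 3. T cells and some macrophages are also known to express Prdm1.

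Sdc1, encoding the plasma cell surface marker CD138, had 6.44, 6.80, 6.96 and 6.53 in wild type and 7.39, 7.0, 5.90 and 6.82 in Yaa. The groups overlapped with and without Yaa 3, since Yaa 4 lay below wild type 3. The difference was 0.09 ± 0.29 (SE; limma adjusted p = 0.997), and 0.39 ± 0.19 (SE; limma adjusted p = 0.716) without Yaa 3. It was -0.11 without Yaa 1 and -0.06 with the values as deposited. The other tested Sdc1 probe sets differed by 0.04 and 0.19, and the probe set under the filter stood at 4.47 to 5.79 in wild type and 5.24 to 5.91 in Yaa.

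Derl3, part of the channel that returns misfolded proteins to the cytosol, stood at 6.70, 6.85, 6.31 and 6.75 in wild type and 7.29, 7.04, 5.97 and 6.87 in Yaa. Yaa 1, 2 and 4 were above every wild-type sample, Yaa 4 only narrowly. The difference was 0.14 ± 0.28 (SE; limma adjusted p = 0.997), and 0.42 ± 0.17 (SE; limma adjusted p = 0.707; exact permutation p = 0.0571) without Yaa 3. It was -0.03 without Yaa 1, and -0.02 with the values as deposited.

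Mzb1, a chaperone cofactor for antibody assembly in marginal zone B cells and plasma cells, had 10.34, 10.81, 10.77 and 10.80 in wild type. In Yaa it had 11.44, 11.56, 5.48 and 11.10. Yaa 3 was lowest, then came all wild-type samples, and then Yaa 1, 2 and 4. The difference was -0.79 ± 1.21 (SE; limma adjusted p = 0.997) with all samples and 0.68 ± 0.16 (SE; limma adjusted p = 0.393; exact permutation p = 0.0286), or 1.6-fold, without Yaa 3. Less the mean of the B cell markers in the same sample, Mzb1 was 0.15 to 0.34 in wild type, 1.18 in Yaa 1, 0.66 in Yaa 2, 0.91 in Yaa 4 and -0.46 in Yaa 3.

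Jchain, whose product links IgM and IgA into polymers, followed the same order. It stood at 11.52, 12.20, 11.77 and 12.07 in wild type and at 12.79, 12.53, 6.32 and 12.51 in Yaa. The difference turned from -0.86 ± 1.29 (SE; limma adjusted p = 0.997) to 0.71 ± 0.16 (SE; limma adjusted p = 0.383; exact permutation p = 0.0571), or 1.64-fold, without Yaa 3. Less the B cell marker mean, Jchain was 1.16 to 1.74 in wild type, 2.53 in Yaa 1, 2.32 in Yaa 4, 1.63 in Yaa 2 and 0.37 in Yaa 3, so on that scale only Yaa 1 and Yaa 4 lay above the wild-type range.

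**Figure D2:**
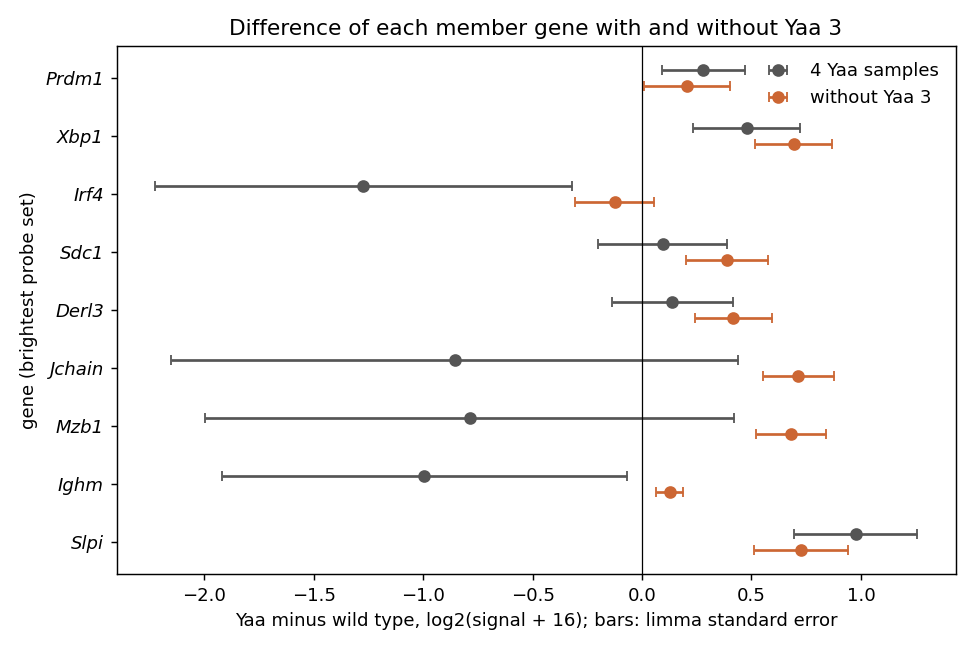
Yaa minus wild type for the brightest probe set of each member gene on the log2(signal + 16) scale, with limma standard errors, for all 4 Yaa samples (grey) and without Yaa 3 (orange). Jchain moves from -0.86 to 0.71, Mzb1 from -0.79 to 0.68 and Ighm from -0.99 to 0.13, while Xbp1 and Slpi are above 0 in both.

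Ighm, the constant gene of IgM heavy chains, had 11 probe sets, of which 8 were tested, and they did not move alike. The 2 brightest, in the top 1% of the array, were nearly flat outside Yaa 3. Probe set 1427351_s_at had 13.48, 13.55, 13.45 and 13.45 in wild type and 13.62, 13.54, 9.10 and 13.68 in Yaa. Its difference was -0.99 ± 0.92 (SE; limma adjusted p = 0.997) and 0.13 ± 0.06 (SE; limma adjusted p = 0.716) without Yaa 3. Probe set 1427329_a_at differed by -1.08 and, without Yaa 3, by 0.16. Since B cells of every stage transcribe Ighm, these levels are not a measure of plasma cells alone.

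The dimmer Ighm probe sets spread more within wild type (SD 0.13 to 1.26, against 0.05 and 0.10 for the 2 brightest). Within Yaa, with Yaa 3 included, only 1425385_a_at spread more (SD 3.57, against 2.26 and 2.49 for the 2 brightest). Probe set 1425385_a_at stood at 7.71, 10.36, 9.36 and 7.88 in wild type (SD 1.26, n = 4) and at 12.98, 11.72, 4.89 and 10.52 in Yaa. Yaa 1, 2 and 4 were all above the wild-type samples, Yaa 4 narrowly above wild type 2. Its difference was 1.2 ± 1.55 (SE; limma adjusted p = 0.997), and 2.90 ± 0.73 (SE; limma adjusted p = 0.449; exact permutation p = 0.0571) without Yaa 3. Without Yaa 1 it was 0.22, with Yaa 3 kept.

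In 1425247_a_at the levels were 6.08, 6.47, 5.96 and 6.48 in wild type and 9.98, 7.36, 5.50 and 7.03 in Yaa. Yaa 1 was far above the rest, and the same held for 1427870_x_at (9.81 against at most 7.83), 1427756_x_at (9.31 against at most 7.05) and 1425324_x_at (9.05 against at most 6.86). With all samples these 4 differed by 1.02 to 1.36, and without Yaa 3 by 1.53 to 2.13 (limma adjusted p 0.482 to 0.585). Without Yaa 1, with Yaa 3 kept, they differed by 0.38 to 0.58, so their size rests largely on Yaa 1. Probe set 1452535_at was higher more evenly, at 8.35, 8.54 and 8.78 in Yaa 1, 2 and 4 against 7.90 to 8.15 in wild type, with 5.17 in Yaa 3. The suffix x marks probe sets that may bind related transcripts, and immunoglobulin genes share sequence. Which exon or rearranged transcript each probe set targets is not given in the sources used here, so these probe sets are uncertain as measures of Ighm itself. The 3 probe sets under the filter stood between 4.09 and 5.57 in all samples.

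**Figure D3:**
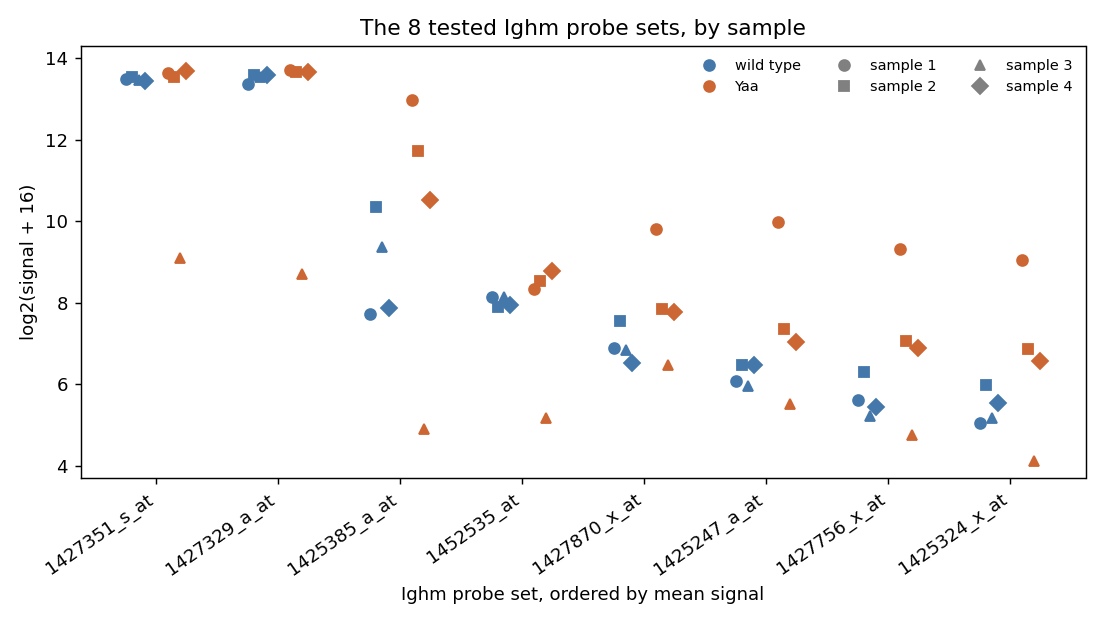
Level of each tested Ighm probe set in every sample, as log2(signal + 16); blue is wild type, orange is Yaa, and symbols mark the sample number. Both brightest probe sets lie between 13.38 and 13.71 in all samples but Yaa 3, while 5 dimmer ones are highest in Yaa 1.

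Slpi, which inhibits neutrophil elastase and is made by phagocytes and epithelia, was the only member gene whose brightest probe set did not overlap between the groups. It stood at 8.77, 8.92, 8.95 and 8.89 in wild type and at 9.86, 9.95, 10.59 and 9.04 in Yaa. Unlike the antibody genes it was highest in Yaa 3. The difference was 0.98 ± 0.28 (SE; limma adjusted p = 0.807; exact permutation p = 0.0286, the smallest that 4 against 4 allows), a 1.97-fold difference, and 0.73 ± 0.21 (SE; limma adjusted p = 0.540) without Yaa 3. With the values as deposited or with median-centred arrays the groups overlapped. The monocyte and macrophage marker mean took the same order, with 9.85 in Yaa 1, 9.90 in Yaa 2, 10.76 in Yaa 3 and 9.43 in Yaa 4 against 9.19 to 9.30 in wild type, and all 11 tested markers had higher Yaa means. The part of these cells in the Slpi difference was not tested.

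The secretory machinery was represented by 46 genes, of which 43 were tested: chaperones, disulfide isomerases, the translocon and degradation factors. Of these, 34 had higher and 9 lower means in Yaa, where 45.8% of all tested genes were higher, with a median difference of 0.14. With the values as deposited only 13 were higher, with a median of -0.07, where 16.3% of all genes were higher with a median of -0.21; median-centred arrays gave 25 higher and a median of 0.02, against 26.5% and -0.13. limma called 0; at an unadjusted p under 0.05 there were 6 higher and 0 lower, where 3.23% of all genes were higher. Those 6 became 0 with the replicate block, with the values as deposited or without wild type 2, and 1 with median-centred arrays, without wild type 3 or without Yaa 1. They became 4 without wild type 1 or 4, 7 without Yaa 2 and 3 without Yaa 4. Without Yaa 3, 35 were higher with a median of 0.19, where 45.3% of all genes were higher. Then 10 higher and 0 lower had an unadjusted p under 0.05, against 3.74% of all genes, and these became 5 with median-centred arrays and 3 with the values as deposited. The 4 with the smallest p over all samples were Sec61b, of the translocon, P4hb, a disulfide isomerase, Sec11c, of the signal peptidase, and Manf, a stress-induced secreted protein. Sec61b differed by 0.32 ± 0.12 (SE), P4hb by 0.27 ± 0.10 (SE), Sec11c by 0.37 ± 0.14 (SE) and Manf by 0.27 ± 0.10 (SE; limma adjusted p = 0.997 each). These 4 genes were not low in Yaa 3. They stood there at 10.67, 10.395, 10.14 and 10.38, against at most 10.56, 10.11, 10.02 and 10.34 in wild type. A low Yaa 3 widens the spread of the Yaa group and so raises p. Choosing by the smallest p over all samples therefore favours genes that are not low in it. Other genes of the machinery, among them Txndc5 and Hsp90b1 (below), were low in Yaa 3. Hence these 4 cannot show whether the machinery differed from Jchain and Mzb1 in that sample.

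Chosen after their values were seen, 3 others had the smallest p without Yaa 3. Txndc5, a disulfide isomerase abundant in plasma cells, stood at 8.19 to 8.70 in wild type and at 9.58, 9.27, 7.70 and 9.09 in Yaa. Hsp90b1, the chaperone GRP94, stood at 10.47 to 10.73 and at 11.12, 11.23, 10.04 and 11.12. Creld2, a stress-induced chaperone, stood at 7.78 to 7.98 and at 8.63, 8.52, 7.79 and 8.24. In each, Yaa 1, 2 and 4 exceeded all wild-type samples and Yaa 3 did not; the differences without Yaa 3 were 0.85 ± 0.17, 0.51 ± 0.10 and 0.61 ± 0.14 (SE; limma adjusted p = 0.294, 0.301 and 0.372).

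The 10 tested genes with the full stress element printed above, Derl3 included, had a median difference of 0.18 without Yaa 3, with 8 higher. The 25 secretory genes that had a window without it had 0.19, with 22 higher. Among the 10, and chosen after their values were seen, Hspa5, the chaperone BiP, differed by 0.20 ± 0.08 (SE) with all samples and Syvn1, a ubiquitin ligase of the same pathway, by -0.26 ± 0.22 (SE). The lowest was Ero1b, an oxidase of the endoplasmic reticulum, with -0.53 ± 0.60 (SE), or 0.16 without Yaa 3.

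**Figure D4:**
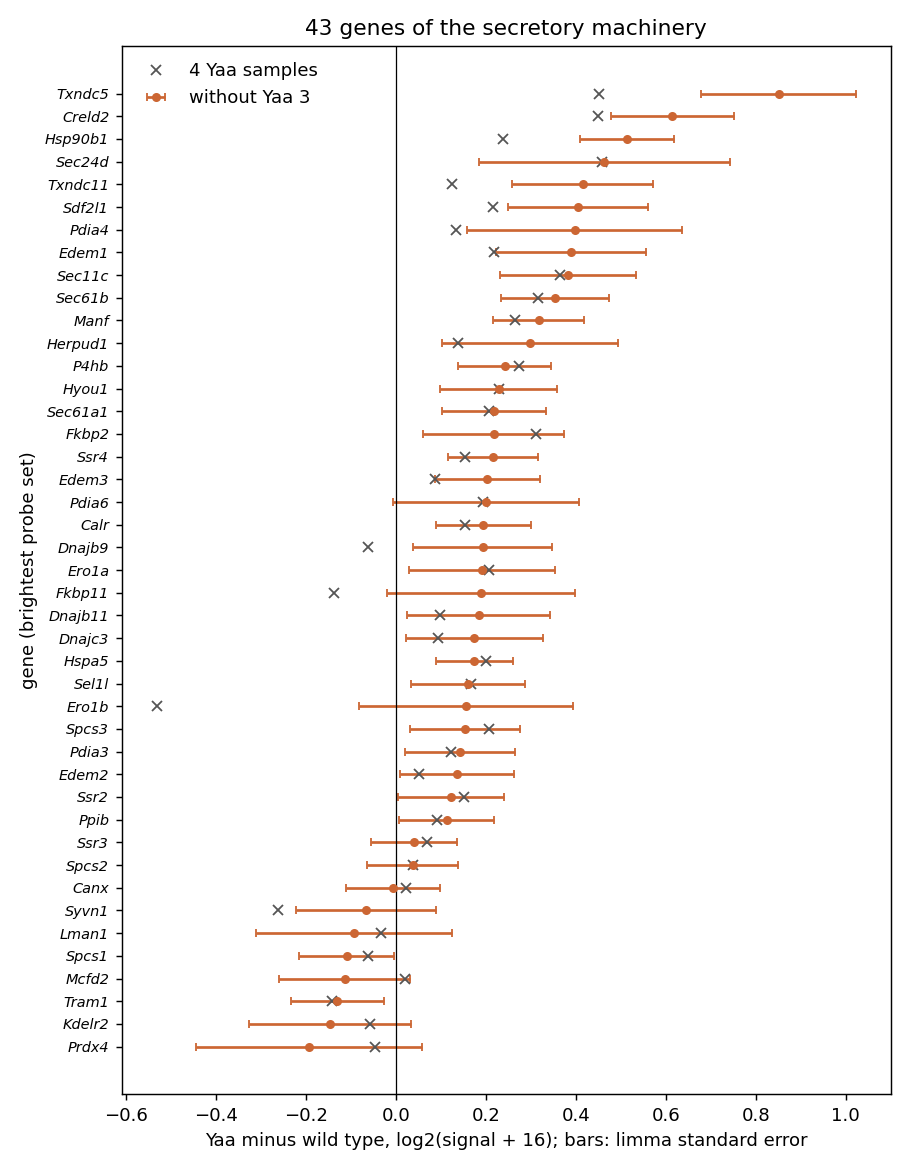
Yaa minus wild type for the 43 tested genes of the secretory machinery on the log2(signal + 16) scale; orange points with limma standard errors are without Yaa 3 and grey crosses are with all samples. Without Yaa 3 most points lie right of 0, led by Txndc5 at 0.85, and the lowest is Prdx4 at -0.19. With all samples the lowest cross is Ero1b at -0.53.

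Other surface proteins and regulators of plasma cells showed no common direction: of 27 tested, 8 were higher and 19 lower, with a median of -0.11, and without Yaa 3 17 were higher with a median of 0.08. That median was -0.07, with 11 higher, without Yaa 2 and Yaa 3. limma called 0 with all samples and without Yaa 3. At an unadjusted p under 0.05 there were 1 higher and 0 lower with all samples (3.23% of all genes were higher), and 3 higher and 1 lower without Yaa 3 (3.74% higher). Ell2, an elongation factor that favours secreted heavy chain transcripts, had 9.85 to 10.01 in wild type and 10.32, 10.24, 10.03 and 10.09 in Yaa, without overlap, and differed by 0.25 ± 0.11 (SE; limma adjusted p = 0.997). Atf4, named after its values were seen, also did not overlap but was lower, at 11.547 to 11.595 in wild type and 11.352 to 11.502 in Yaa. Of all 10340 tested genes, 462 did not overlap. Tnfrsf17, the survival receptor BCMA, was dim and differed by 0.42 ± 0.23 (SE). The integrin gene Itga4 differed by -0.22 ± 0.12 (SE), and Tnfrsf13b, the receptor TACI, by -1.0 ± 0.67 (SE), or by -0.19 without Yaa 3, where it stood at 5.98. Slamf7, a plasma cell surface receptor chosen after its values were seen, stood at 6.19 to 6.82 in wild type and at 7.24, 7.72, 5.24 and 7.17 in Yaa.

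Genes that are switched off in plasma cells were low in Yaa 3, and their direction without it depended on the fit. Of 16 tested, 15 had lower Yaa means with a median of -0.97, and without Yaa 3 11 were higher with a median of 0.04. limma called 0 in both fits, with 0 at an unadjusted p under 0.05. Without Yaa 2 and Yaa 3, 13 of the 16 were lower (median -0.19), 3 of them at an unadjusted p under 0.05. Of all 10340 genes, 5647 were lower in that fit, 534 of them at that p. Array weights without Yaa 3 also gave 13 lower (median -0.21), 4 at an unadjusted p under 0.05. There 5720 of all 10340 genes were lower, 826 of them at that p. Ciita, the MHC class II activator, differed by -0.47 ± 0.32 (SE), Pax5, the B cell identity factor, by -0.40 ± 0.28 (SE), and the receptor genes Cd79b and Cd22 by -1.25 ± 0.89 and -1.16 ± 0.86 (SE). Without Yaa 3 the same genes differed by -0.12, -0.11, -0.16 and -0.13.

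Besides Ighm, 15 immunoglobulin genes were tested, mostly variable genes of the kappa light chain. With all samples 12 had lower Yaa means (median -0.67), and without Yaa 3 12 had higher ones (median 0.40), 6 of them at an unadjusted p under 0.05, where 45.3% of all genes were higher and 3.74% were higher at that p. With array weights over all 8 samples 9 were higher (median 0.07). limma called 0 in both fits. The rule named Iglv1, Igkv19-93, Ighv14-2 and Igkv5-39, with differences of -1.95 ± 1.49, -0.40 ± 0.31, -1.77 ± 1.52 and -0.54 ± 0.55 (SE), with Yaa 3 at 4.11, 5.06, 4.06 and 4.04; all but Igkv19-93 were close to the floor there. Iglv1, of the lambda chain, stood at 11.38 to 11.76 in wild type and at 11.30, 11.67 and 11.21 in the other Yaa samples.

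Constant genes of switched isotypes, chosen after their values were seen, differed by sample. Ighg3, the IgG3 heavy chain, stood at 7.73, 8.09, 7.69 and 7.48 in wild type and at 10.52, 8.47, 6.18 and 8.56 in Yaa, highest in Yaa 1. Igha, the IgA heavy chain, stood at 10.44, 10.51, 10.70 and 11.07 in wild type and at 11.34, 12.42, 4.32 and 11.03 in Yaa, highest in Yaa 2, with Yaa 4 within the wild-type range. Without Yaa 3 Ighg3 differed by 1.43 ± 0.45 (SE; limma adjusted p = 0.572) and Igha by 0.91 ± 0.31 (SE; limma adjusted p = 0.609). The variable gene Igkv4-72 stood at 6.83 to 7.64 in wild type and at 9.24, 8.78, 4.12 and 7.54 in Yaa.

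**Figure D5:**
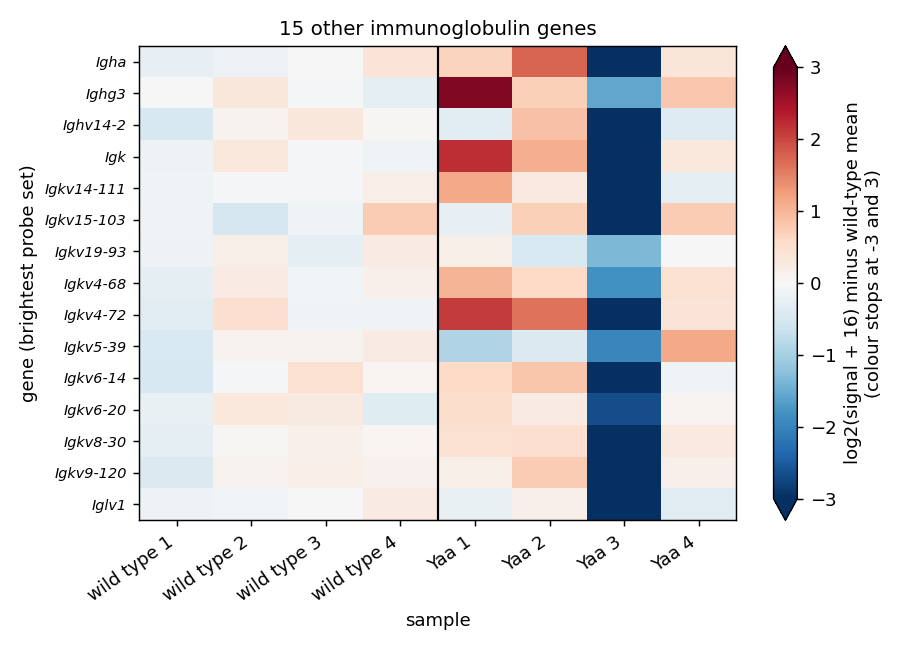
Level of the 15 other tested immunoglobulin genes in each sample as log2(signal + 16) minus the wild-type mean of that gene; red is higher, blue is lower, and colours stop at -3 and 3. Yaa 3 is blue throughout, and Ighg3 is deepest red in Yaa 1 while Igha is deepest red in Yaa 2.

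The profile of Jchain over the 8 arrays was most like those of the kappa variable gene Igkv8-30 (Pearson r = 0.994), Ctla4 (0.992), A830010M20Rik (0.991), Igkv9-120 (0.988) and Ikbke (0.986), out of 10331 genes. These values rest largely on the distance of Yaa 3 from the rest, and without Yaa 2 and Yaa 3 they were 0.891, 0.909, 0.910, 0.646 and 0.718. For Ighm the most alike were Igkv8-30 (0.995), Iglv1 (0.994), Pou2af1 (0.993), Cd69 (0.992) and Ms4a1 (0.992), of which only Igkv8-30 stayed above 0 without those samples (0.662, -0.824, -0.035, -0.312 and -0.512).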

How the data were processed

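The deposited values are MAS5 signals, a linear intensity per probe set, per the submitters' processing notes, with version and scaling not stated there. Deposited array means, trimmed by 2% at each end, ran from 106.9 to 193.1, so all arrays were quantile normalized and taken as log2(signal + 16). Controls (64) and probe sets at or below the median were not tested, leaving 22518. The groups were compared in limma 3.58.1 (R 4.3.3) with a mean-variance trend and Benjamini-Hochberg adjustment over all tested probe sets, threshold 0.05. Single probe sets also had two-sided exact permutation tests over 70 arrangements.

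Symbols came from the platform annotation, updated through Entrez IDs to GRCm38.p6 (34754 of 34945 single-symbol probe sets matched). Promoter sequences are RefSeq's, of that build. The members and gene lists were chosen with earlier results of these data known. Named are all member probe sets, the 4 genes with the smallest p of each other plasma cell, B cell program or immunoglobulin list, and the 5 genes most like Jchain and Ighm; marker lists are given by their means. Scalings, pseudocounts, filters, variance models, weights, a replicate block and left-out samples were tried. The procedure was tested on simulated data. The number of arrays limits precision.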

Additional observations from a re-analysis of the deposited data

Results flagged for a closer look

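Within a group of 4 samples, a sample counted as far from the others when its gap to the nearest was too large a share of the group's range by Dixon's test, which chance gives in about 1 of 20 groups. Among 76 groups (38 named probe sets in 2 groups) there were 15 such samples, 12 of them Yaa 3.

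Yaa 3 was low for 6 member probe sets, which were Irf4 1421173_at (6.22), Jchain (6.32), Mzb1 (5.48) and the Ighm probe sets 1427351_s_at (9.10), 1427329_a_at (8.71) and 1452535_at (5.17). It was also low for Tnfrsf13b (5.98), Pax5 (5.29), Cd79b (6.86), Cd22 (6.95), Iglv1 (4.11) and Ighv14-2 (4.06).

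Wild type 1 was below the other wild-type samples for Xbp1 1437223_s_at (9.93), Irf4 1421173_at (10.61) and Mzb1 (10.34).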

How the results depend on the processing

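Member probe sets called numbered 0 with all 8 samples and 0 in 17 alternatives, 1 with limma array weights, 1 without Yaa 2 and Yaa 3, and 9 with array weights without Yaa 3, a combination chosen after seeing the data; that fit also called 3 secretory genes and 5 other immunoglobulin genes (1.33% of all probe sets). All probe sets called were 1 with all samples (Casp9), 0 with log2(signal + 1), 143 with array weights, 105 without Yaa 2 and Yaa 3, 300 with array weights without Yaa 3, 10 with the values as deposited without Yaa 3, and 1 to 31 with single samples left out. Without Yaa 3, the 15 member probe sets with every Yaa sample above every wild-type sample became 13 after median-centring and 5 on the deposited scale. The member median ran from -0.11 to 0.42 with single samples left out and was -0.06 as deposited. Scaling as deposited moved the median of all tested probe sets to -0.20 from -0.01, and median-centring to -0.11.

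With the replicate block 0 probe sets were called, and the block changed no member call. Same-numbered samples did not deviate together (correlations -0.005, 0.016, -0.367 and -0.128). These correlations cannot exclude pairing, because samples can share a day or litter without a visible common deviation. Whether the numbers pair the samples is therefore unknown.

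Jchain turned to 0.32 and Mzb1 to 0.25 with array weights. Without Yaa 2 and Yaa 3, Jchain, Mzb1 and Ighm were 0.74, 0.58 and 0.16; with array weights without Yaa 3 they were 0.71, 0.62 and 0.14 (limma adjusted p = 0.0337, 0.0274 and 0.270), and Xbp1 and Slpi passed (adjusted p = 0.0443 and 0.0446). Without Yaa 3 they were 0.74, 0.63 and 0.21 with the values as deposited and 0.77, 0.66 and 0.23 with median-centred arrays. The mean of its tested probe sets gave Ighm 0.45. With the values as deposited Sdc1 was -0.057 and Derl3 -0.017. With single samples left out, Jchain ran from -1.44 to 0.71, Mzb1 from -1.34 to 0.68, Ighm from -1.39 to 0.13, Sdc1 from -0.11 to 0.39 and Derl3 from -0.027 to 0.42; the positive ends are without Yaa 3. The cause of these changes was not tested.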
